A study of Mus musculus with 24 samples.

Results

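The cecum of mice labelled Cdx2-/- was compared with the cecum of mice heterozygous for Cdx2. The comparison took 9 of the 24 libraries of the series by their labels, 6 Cdx2-/- libraries and 3 Cdx2+/- libraries, and covered the 20502 genes that passed a filter on low counts. The Cdx2-/- libraries form 2 sets of 3 with different library codes, called set 1 (replicates 1 to 3) and set 2 (replicates 4 to 6) here. A gene was counted as holding in both sets when the averaged contrast and each set alone, all against the same 3 Cdx2+/- libraries, passed the test with the same sign.

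Cdx2-/- mice had the genotype Cdx2f/f::AhCreERT and had received tamoxifen and β-naphthoflavone. In this line a tamoxifen-dependent Cre recombinase, driven by the CYP1A1 (Ah) promoter that β-naphthoflavone induces, removes the floxed Cdx2 allele. Cdx2+/- mice were untreated heterozygotes, and the wild-type mice used for reference were untreated. RNA came from dissected tissue, so it holds the gut wall as well as the epithelium. The labels used here give no age, strain or time after induction, and do not say whether the Cdx2+/- tissue was a lesion. The kind of allele and the inducing agents go with the genotype and cannot be told apart from it. Nothing in the labels says that replicates were separate animals, so p-values measure only the spread between these samples, which may be technical. Apc+/- ileum, a second reference, has label fields that disagree on whether its Cdx2 allele was floxed.

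Cdx2 is a homeobox transcription factor that specifies intestinal epithelium along the gut and, with Cdx1 and HNF4 factors, keeps absorptive genes active. Gata4, Sox2 and Pdx1 are regulators of the stomach and upper gut that intestinal epithelium of the cecum normally holds at low levels. Cdx2+/- mice are known for lesions of the cecum and proximal colon in which the epithelium lacks Cdx2 and takes on gastric, squamous or small-intestinal form.

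Promoters of 5 genes that held in both sets are printed because the factor under study binds DNA and because these genes, described with their levels further on, fell or rose together. Slc10a2 (the ileal bile acid importer), Fabp1 and Fabp2 (carriers of fatty acids inside the absorptive cell) were lower in Cdx2-/-, and Mmp7 (the Paneth cell protease that activates defensins) and Lcn2 (a secreted iron-binding protein) were higher. Each line holds the 250 bases before the start annotated by RefSeq in GRCm38.p6, read along the gene's strand, at chr8:5105288-5105537 (minus strand), chr6:71199629-71199878 (plus), chr3:122894822-122895071 (plus), chr9:7691840-7692089 (plus) and chr2:32387740-32387989 (minus). Capitals mark the letters CAATAAA or CCATAAA, a CDX recognition motif, or the same letters on the other strand (TTTATTG or TTTATGG).
Slc10a2: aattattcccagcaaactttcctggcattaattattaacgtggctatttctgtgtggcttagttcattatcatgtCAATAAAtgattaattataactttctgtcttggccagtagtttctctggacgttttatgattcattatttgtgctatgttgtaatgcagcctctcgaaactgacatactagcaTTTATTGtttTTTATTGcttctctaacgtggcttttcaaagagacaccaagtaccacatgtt
Fabp1: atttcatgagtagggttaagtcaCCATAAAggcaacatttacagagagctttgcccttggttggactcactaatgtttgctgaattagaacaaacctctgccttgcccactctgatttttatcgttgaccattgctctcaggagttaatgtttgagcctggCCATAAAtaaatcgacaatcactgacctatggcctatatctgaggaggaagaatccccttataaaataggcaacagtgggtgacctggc
Fabp2: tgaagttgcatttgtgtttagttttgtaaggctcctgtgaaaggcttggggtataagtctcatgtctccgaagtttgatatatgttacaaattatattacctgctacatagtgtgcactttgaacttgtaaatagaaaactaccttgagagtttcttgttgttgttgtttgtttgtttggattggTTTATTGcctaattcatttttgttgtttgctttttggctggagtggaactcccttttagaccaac
Mmp7: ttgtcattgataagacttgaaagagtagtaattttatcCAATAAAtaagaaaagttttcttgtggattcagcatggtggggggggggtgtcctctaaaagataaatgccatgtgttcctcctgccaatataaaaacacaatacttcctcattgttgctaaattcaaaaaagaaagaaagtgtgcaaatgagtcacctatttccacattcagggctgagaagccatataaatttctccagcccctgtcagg
Lcn2: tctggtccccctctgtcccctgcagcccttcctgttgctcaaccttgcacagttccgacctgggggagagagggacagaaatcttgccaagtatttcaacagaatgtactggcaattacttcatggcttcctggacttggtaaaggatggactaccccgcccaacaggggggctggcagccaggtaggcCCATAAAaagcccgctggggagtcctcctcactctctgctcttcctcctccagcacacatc
Slc10a2 held 3 matches, 175, 62 and 52 bases before the start, and Fabp1 held 2, at 227 and 89 bases. Fabp2 had 1 match at 65 bases, Mmp7 1 at 212 and Lcn2 1 at 61. Of the 188 genes of the lists that held in both sets, 135 had a RefSeq promoter. Of those, 11 had a match in the 250 bases before the start, from which the 5 shown were picked. Genes of 1 chromosome were left out of this search, though not out of the 135. The shares over all genes were counted in a longer window, 250 bases before and 50 bases after the start. There a match stood in 82 of 1424 promoters of genes that held on the lower side in Cdx2-/- (5.76%). It stood in 81 of 1427 of genes that held on the higher side (5.68%) and in 754 of 13653 of all genes tested (5.52%). These shares lie close together, and a match describes letters in a window, not a bound site.

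The 9 libraries held 41967173 to 87975179 reads in genes, of which the 10 most abundant genes took 7.61% to 13.7%. Levels are CPM, the counts of a gene relative to all reads in genes of that library, scaled between libraries by edgeR's trimmed mean of M values. Libraries differed in sex: Xist stood at 666 to 816 CPM in set 1 and at 0.311 to 2.19 CPM in set 2 and Cdx2+/-, while the Y-linked Ddx3y was at 0 to 0.25 CPM in set 1 and 50.2 to 73.8 CPM in the others. The contrast of set 1 with Cdx2+/- is therefore also one of sex, whereas set 2 and Cdx2+/- share it. Of the genes that held in both sets, 76 of the higher (3.79%) and 52 of the lower (2.65%) lie on the X chromosome, beside 3.45% of all genes tested. Set 1 replicates 2 and 3 were far closer to each other than any other pair of one group, with a chi-square of 7.03 per degree of freedom over genes against 52.99 to 343.7 for the other pairs. They still differed by more than sampling noise and were kept as 2 libraries, and counts with them added up are given below.

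Cdx2 RNA was not lower in the Cdx2-/- libraries. Its level was 287, 168 and 165 CPM in set 1, 148, 130 and 349 CPM in set 2 and 118, 115 and 116 CPM in Cdx2+/-, beside a mean of 565 CPM in wild-type cecum. All 6 Cdx2-/- libraries lay above the 3 Cdx2+/- libraries, and the log2 difference of 0.83 ± 0.42 (SE) did not pass edgeR's quasi-likelihood test (adjusted p = 0.12), although it did when libraries were scaled by total counts only (1.13, adjusted p = 0.026) or to epithelial markers (1.93, adjusted p = 0.00023). Reads counted over the whole gene can come from transcripts outside the deleted part, so this level does not check the labels. How completely the allele was deleted in these tissues was not tested. Cdx1, the related intestinal factor, was lower in the Cdx2-/- libraries, at 11.6 to 68.7 CPM (median 14.6) against 95.3 to 107 CPM. Its log2 difference of -1.83 ± 0.64 passed in the average (adjusted p = 0.029) but in neither set alone (0.071 and 0.093), and lost the call without any 1 of 7 of the 9 libraries (adjusted p 0.058 to 0.073).

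Among all genes, 4036 were higher in Cdx2-/- (19.7% of those tested) and 4217 lower (20.6%) in edgeR's quasi-likelihood test at a Benjamini-Hochberg adjusted p under 0.05. Set 1 alone gave 2679 higher (13.1%) and 2661 lower (13.0%), and set 2 alone 4402 higher (21.5%) and 4341 lower (21.2%). In both sets 3963 genes held, 2004 higher (9.77%) and 1959 lower (9.56%), and 25 genes were called in opposite directions in the sets. All 6 Cdx2-/- libraries lay above all 3 Cdx2+/- libraries for 3948 genes (19.3%) and below them for 3764 (18.4%). The median log2 difference of all genes was 0.05. The balance of directions rests on the scaling: genes that held were split 2770 higher and 1443 lower with upper-quartile scaling and 3612 higher and 1077 lower with total counts only. Leaving out 1 library at a time left 2386 to 3897 genes holding, with 2386 without Cdx2+/- replicate 2, 2587 without set 1 replicate 3 and 2589 without Cdx2+/- replicate 1. Adding set 1 replicates 2 and 3 into 1 library gave 2652, of which 2630 were among the 3963. The 9 libraries fitted alone, without the other groups, gave 5181, of which 3677 were among the 3963.

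**Figure D1:**
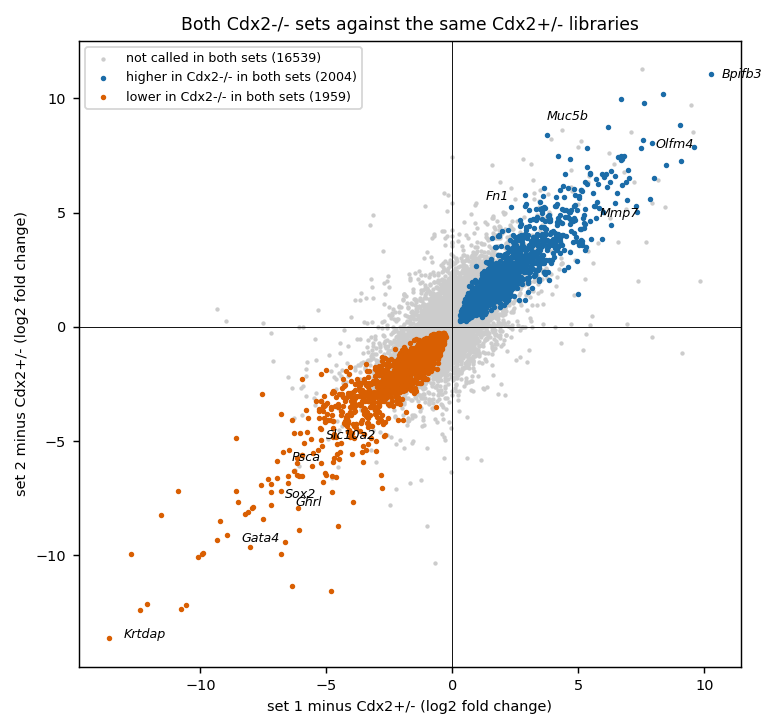
Log2 difference from Cdx2+/- cecum in set 1 (horizontal axis) and in set 2 (vertical axis), 1 point a gene, with genes that held in both sets in colour (2004 higher, 1959 lower) and the other 16539 in grey. Both axes subtract the same 3 Cdx2+/- libraries, so points near the diagonal are partly shared by construction.

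Genes of the gut wall were higher in Cdx2-/-. All 13 smooth muscle genes of the list rose and 11 held, beside 19.7% and 9.77% of all genes. The list's median log2 difference was 2.59. Acta2, smooth muscle actin, was at 296 to 545 CPM (median 319) against 32.7, 37 and 109 CPM, and wild-type cecum stood at 465 CPM. The summed level of the list was 1814 to 3899 CPM in Cdx2-/- and 304 to 856 CPM in Cdx2+/-. Enteric neuron and glia genes followed, with 12 of 14 higher, 10 held and a sum of 59.1 to 151 CPM against 22.7 to 31.3 CPM. Vip, a neuropeptide of enteric neurons, stood at 5.33 to 11.7 CPM (median 8.15) against 0.0217, 0.104 and 1.03 CPM (log2 difference 4.45 ± 0.93, adjusted p = 0.0013, held). All 13 fibroblast and collagen genes were higher and 5 held, and without Cdx2+/- replicate 1 only 7 were called. Fn1, fibronectin, was at 958, 223 and 216 CPM in set 1, 2401, 4927 and 449 CPM in set 2 and 55, 61.4 and 69.8 CPM in Cdx2+/- (4.15 ± 0.70, adjusted p = 0.00028). Lists of adipocytes, pancreatic acinar cells and skeletal muscle, tissue that could be dissected along, gave 1 higher and 1 lower call each (0 to 2 when 1 library was left out), and the acinar protease Prss1 had no read in either state.

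Markers of any epithelium moved the other way. Of 9 such genes 6 fell and 2 held, beside 20.6% and 9.56% of all genes. Those that held were Krt8 and Krt20, keratins of simple epithelium. But only 3 were called without set 1 replicate 2 or 3 or Cdx2+/- replicate 2 or 3. The sum of the 9 was 7153 to 16808 CPM in Cdx2-/- and 25752 to 26730 CPM in Cdx2+/-, without overlap. Epcam, an adhesion protein of epithelium, was at 1100 to 1631 CPM against 1776 to 2130 CPM. In bulk tissue fewer cells of a type and less RNA per cell cannot be told apart. How far the wall and epithelium markers account for each group of genes that follows was not tested, but libraries scaled to these 9 markers instead, a setting chosen after seeing these values, moved the median of all genes from 0.05 to 1.27. This scaling uses the summed counts of the 9, so abundant keratins weigh most. In Cdx2+/-, Krt8, Krt19 and Krt20 had medians of 10058, 5628 and 3395 CPM, beside a middle list sum of 26113 CPM.

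**Figure D2:**
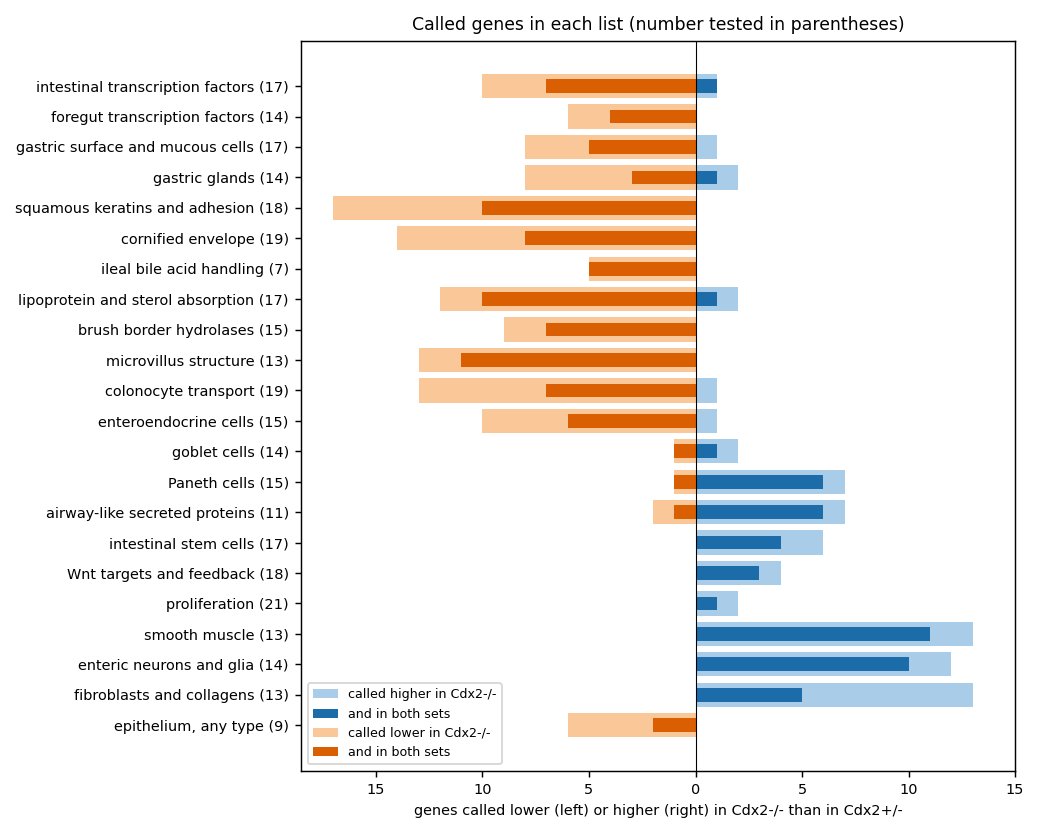
Number of genes of each of 22 lists that were lower (left) or higher (right) in Cdx2-/- than in Cdx2+/-, with the part that held in both sets marked and the number tested in parentheses. Microvillus, bile acid and squamous lists lie on the lower side, and Paneth, airway-like, muscle and neuron lists on the higher side.

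Transcription factors of foregut and stomach separated the 2 states. Gata4 (chr14:63198922-63271692, minus strand, GRCm38), which marks upper gut and stomach, was at 150, 131 and 126 CPM in Cdx2+/- and at 0.0768 to 0.467 CPM in Cdx2-/-, with a median of 0.252 CPM. Its log2 difference was -9.03 ± 1.15 (adjusted p = 2.6e-05), and no Cdx2-/- library came near the Cdx2+/- range or the 356 CPM of wild-type stomach. Sox2 (chr3:34650405-34652461, plus strand), the foregut factor, was at 11.6, 11.1 and 11.4 CPM against 0.0317 to 0.118 CPM (-7.51 ± 0.69, adjusted p = 1.6e-06). Wild-type cecum had 1.26 CPM of Gata4 and 0.226 CPM of Sox2, so Cdx2-/- lay on the wild-type side of Cdx2+/- for both.

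Sox21, a relative of Sox2, was at 45.9 to 63.8 CPM in Cdx2+/- and 1.76 to 5.66 CPM in Cdx2-/- (-3.79 ± 0.26, adjusted p = 8.9e-08). Nkx6-2, a homeobox factor, was at 12, 10.5 and 9.14 CPM in Cdx2+/-, while a single read was counted in the 6 Cdx2-/- libraries, a ratio of 3778 with a 95% exact counting interval of 677 to 149320. With Sox2 and Sox21, Foxa2 and Tfap2a held on the lower side: of the 14 listed foregut factors, a list without Gata4 and Nkx6-2, 6 were called lower, 4 held and none was higher, against 20.6%, 9.56% and 19.7% of all genes. Not every foregut factor followed. Pax9 was at 4.85 to 35.2 CPM against 14.6 to 22.2 CPM (0.17 ± 0.56, adjusted p = 0.82), and Gata5 at 76.4 to 148 CPM against 93.6 to 107 CPM (0.09 ± 0.24, adjusted p = 0.80), with 1.14 CPM in wild-type cecum. With epithelial scaling Gata5 was 1 of 3 listed factors called higher (1.29, adjusted p = 0.0017). Gata5 was thus far above wild-type cecum in both states and Gata4 in Cdx2+/- alone.

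**Figure D3:**
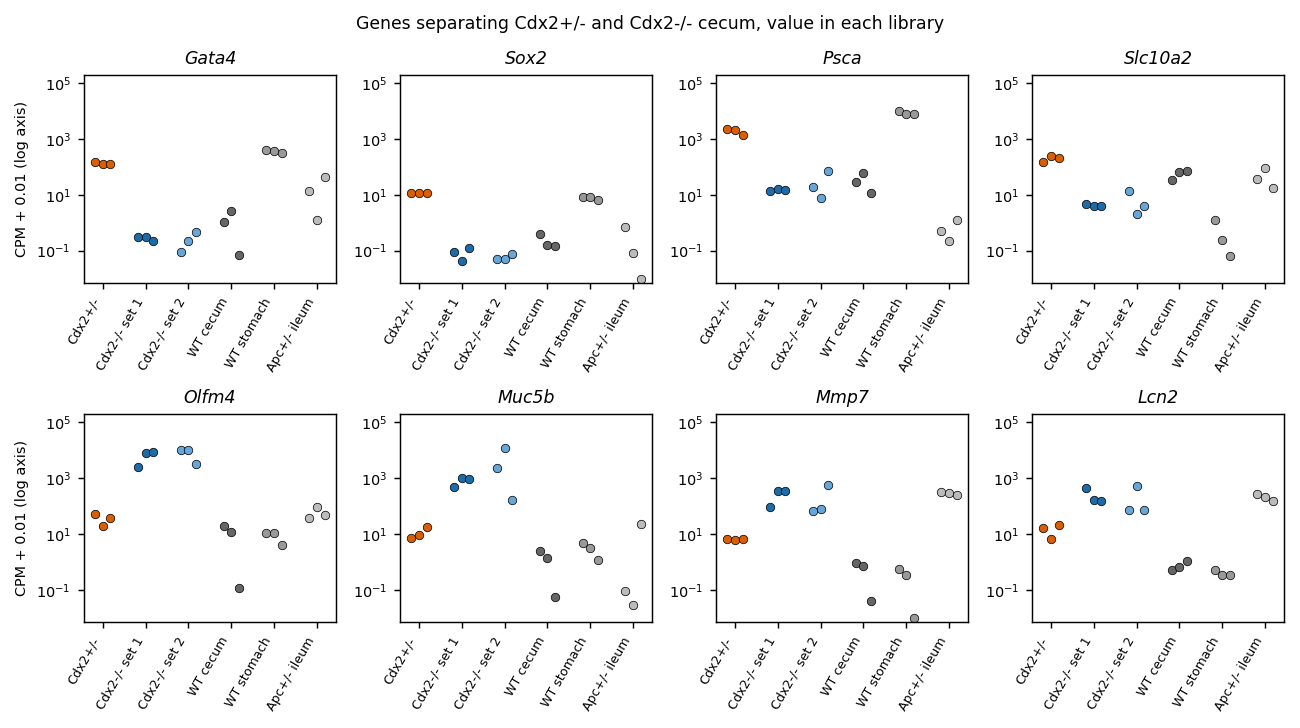
Levels of 8 genes in each library (CPM plus 0.01, logarithmic axis) of Cdx2+/- cecum, Cdx2-/- sets 1 and 2, wild-type cecum, wild-type stomach and Apc+/- ileum. Gata4, Sox2, Psca and Slc10a2 are high in the 3 Cdx2+/- libraries and low in the 6 Cdx2-/- libraries, and Olfm4, Muc5b, Mmp7 and Lcn2 are the reverse.

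Intestinal transcription factors were lower as well, with 10 of 17 called lower, of which 7 held (Gata4 among them). Of all genes 20.6% were called lower and 9.56% held on that side. Of the 17, 1 was called higher and held. Hnf4a, the nuclear receptor behind much of enterocyte expression, was at 304 to 426 CPM (median 354) against 983, 1164 and 1006 CPM (-1.55 ± 0.27, adjusted p = 0.00039), a difference that shrank to -0.37 and lost its call with epithelial scaling (adjusted p = 0.18). Its partner Hnf4g was at 6.87 to 15 CPM against 49.3 to 85.2 CPM (-3.05 ± 0.40, adjusted p = 3.2e-05). Isx, a homeobox repressor of vitamin A uptake, was at 2.29 to 15.6 CPM against 69.0 to 105 CPM, and Klf4, a factor of differentiated epithelium, at 79.8 to 185 CPM against 567 to 676 CPM. The groups did not overlap for any of these 4 genes. The list's median was -0.93 and turned to 0.20 with libraries scaled to epithelial markers, where 6 of 17 were still called lower.

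Posterior Hox genes, which record position along the gut axis, were called in both directions. Of 15 tested 4 were lower and 1 higher (0 without Cdx2+/- replicate 2), beside 20.6% and 19.7% of all genes. The median was -0.02 (0.14 with upper-quartile scaling, 0.28 with total counts and 1.02 with epithelial scaling). The median moved with single libraries, to -1.05 (with 7 genes called lower) without set 1 replicate 1 and to 0.43 and 0.44 without set 1 replicate 2 or 3. Hoxa7, Hoxa9 and Hoxa10, of one cluster, held on the lower side. Hoxa9 was at 1.3 to 6.8 CPM against 61.9, 47.9 and 43.7 CPM (-3.75 ± 0.49, adjusted p = 3.1e-05), with 128 CPM in wild-type cecum. Hoxb9 was at 115 to 215 CPM against 24.8 to 35.3 CPM, without overlap, and missed the threshold (2.26 ± 0.91, adjusted p = 0.055).

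Products of stomach epithelium were lower in Cdx2-/- than in Cdx2+/-, but to very different degrees. Of 17 genes of gastric surface and mucous cells, 8 fell and 5 held, beside 20.6% and 9.56% of all genes. Aqp5, a water channel, was at 142 to 479 CPM against 69.3 to 128 CPM and was the only one called higher (1.57, adjusted p = 0.042), a call made in set 1 but not in set 2 and lost without set 1 replicate 2 or 3, set 2 replicate 4 or 6 or any 1 Cdx2+/- library. Psca, a surface antigen of stomach epithelium, was at 2164, 2055 and 1380 CPM in Cdx2+/- and at 13.7, 15.8 and 15.3 CPM in set 1 and 18.3, 7.32 and 70.7 CPM in set 2 (-6.41 ± 0.77, adjusted p = 1.5e-05). Muc5ac, the surface mucin of the stomach, was at 995 to 1829 CPM against 4.62 to 147 CPM (-5.24 ± 0.99, adjusted p = 0.00063), and Anxa10, an annexin of stomach epithelium, at 1067 to 1281 CPM against 0.204 to 73.0 CPM (-6.61 ± 1.11, adjusted p = 0.00025). The 3 Cdx2+/- libraries lay above all 6 Cdx2-/- libraries for each.

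Gastrokines were abundant in both states. Gkn1, secreted by stomach surface cells, was at 2833, 12422 and 12000 CPM in set 1, 2367, 689 and 1326 CPM in set 2 and 12367, 13181 and 13349 CPM in Cdx2+/-. Set 1 replicates 2 and 3 reached the Cdx2+/- levels and set 2 did not, and the difference was not called (-1.83 ± 0.91, adjusted p = 0.11). Gkn2, its relative, was at 448 to 9056 CPM against 9729 to 10308 CPM (-1.94 ± 1.04, adjusted p = 0.14), and Ctse, cathepsin E, was at 347 to 1006 CPM against 1281 to 1573 CPM (-1.05 ± 0.51, adjusted p = 0.10). Wild-type cecum had 140 CPM of Gkn1 and 12.9 CPM of Ctse, so both mutant states were above it for these genes, while Psca, at 33.4 CPM there, was above it in all 3 Cdx2+/- libraries and in 1 of the 6 Cdx2-/- libraries. Of 14 genes of gastric glands 8 were lower and 3 held on that side, beside 20.6% and 9.56% of all genes. On the higher side 2 were called and 1 held, beside 19.7% and 9.77%. The higher calls fell to 1 without set 1 replicate 2 or 3, set 2 replicate 5 or any 1 Cdx2+/- library. Pga5, a pepsinogen, was at 34.3, 18.6 and 8.81 CPM in Cdx2+/- and 0 to 0.111 CPM in Cdx2-/- (-8.86 ± 0.83, adjusted p = 6.3e-06), and Atp4b, a subunit of the acid pump, at 38, 7.45 and 25.4 CPM against 0 to 0.707 CPM (-8.84 ± 1.29, adjusted p = 7.8e-05). Ghrl, the hormone ghrelin, was at 121 to 153 CPM against 0.653 to 1.99 CPM (-7.00 ± 0.57, adjusted p = 3.4e-07). Medians of both gastric lists (-1.94 and -1.96) stayed below 0 with epithelial scaling (-0.74 and -0.82).

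Squamous genes split the Cdx2+/- libraries. Krt5, a keratin of basal squamous cells, was at 197, 0.382 and 122 CPM in Cdx2+/- replicates 1, 2 and 3 and at 0.235 to 7.49 CPM in Cdx2-/-. Krt14 and Krt6a followed, at 218, 1.01 and 106 CPM and at 163, 0.313 and 67.7 CPM. Replicates 1 and 3 were thus high and replicate 2 was within or below the Cdx2-/- range. Of 18 squamous keratin and adhesion genes 17 were called lower and 10 held, beside 20.6% and 9.56% of all genes. But all 6 Cdx2-/- libraries lay below Cdx2+/- for only 4 of the 18, beside 18.4% of all genes. Without Cdx2+/- replicate 1 the count called lower fell to 11. Krtdap (chr7:30787896-30791097, plus strand), a protein of differentiating keratinocytes, had no read in any Cdx2-/- library and 50.9, 0.104 and 35.9 CPM in Cdx2+/-, at least 434-fold lower by a floor of 3 reads per library, or 270-fold without Cdx2+/- replicate 1. Sprr3, an envelope precursor, was likewise at 0 in Cdx2-/- and at 15.4, 0.0695 and 15.3 CPM in Cdx2+/-, at least 154-fold lower. Calm4, a calmodulin relative, was at 0 in Cdx2-/- and at 35.9, 0.0174 and 1.34 CPM in Cdx2+/-, so its bound of at least 186-fold rests on replicate 1 and is 10.2-fold without it.

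Other genes of this group were high in every Cdx2+/- library, replicate 2 included. Evpl, the envelope protein envoplakin, was at 163, 137 and 126 CPM against 16.4 to 32.8 CPM (-2.46 ± 0.29, adjusted p = 1.4e-05). Dsc2, a desmosomal cadherin, was at 503 to 569 CPM against 248 to 301 CPM (-1.04 ± 0.13, adjusted p = 2.3e-05), a difference that turned to 0.18 with epithelial scaling. Both genes stood near the Cdx2+/- level in wild-type cecum, at 120 and 482 CPM, where Krt5 was at 0.556 CPM. Of 19 cornified envelope genes 14 were lower and 8 held, beside 20.6% and 9.56% of all genes. Some Sprr and keratin genes are near-identical copies whose reads could be split by the counting, and their single values are uncertain.

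**Figure D4:**
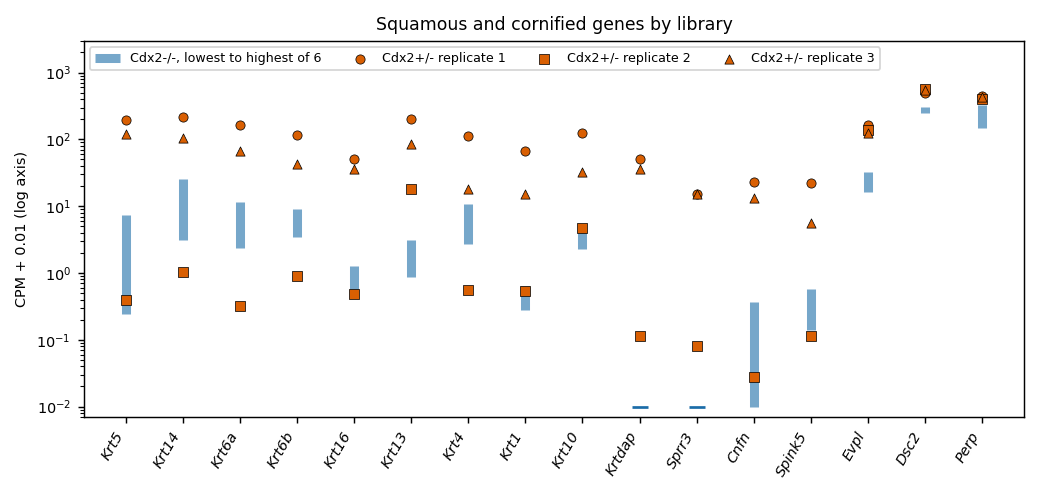
Levels of 16 squamous and cornified genes (CPM plus 0.01, logarithmic axis), with bars from the lowest to the highest of the 6 Cdx2-/- libraries and a point for each Cdx2+/- replicate. Replicate 2 sits with Cdx2-/- for Krt5, Krt14 and Krt6a and with the other 2 replicates for Evpl and Dsc2.

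Genes of the absorptive surface were lower in Cdx2-/-. All 13 microvillus genes fell and 11 held, beside 20.6% and 9.56% of all genes. Ush1c, a scaffold of the microvillus tip, was at 8.94 to 39.6 CPM (median 17.2) against 132, 163 and 146 CPM (-2.95 ± 0.55, adjusted p = 0.00055). Myo1a, the motor that ties the membrane to the core, was at 123 to 331 CPM against 933, 1232 and 1141 CPM (-2.23 ± 0.42, adjusted p = 0.00058), and Cdhr2, a cadherin that links microvilli, at 127 to 343 CPM against 996 to 1419 CPM. None of the 3 overlapped between the states.

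Of 7 genes of ileal bile acid handling, 5 were lower and all 5 held, beside 20.6% and 9.56% of all genes. Slc10a2 (chr8:5083219-5105351, minus strand), whose promoter is printed above with 3 matches, was at 4.52, 4.07 and 3.93 CPM in set 1, 13.8, 2.09 and 4.02 CPM in set 2 and 152, 253 and 201 CPM in Cdx2+/- (-5.26 ± 0.90, adjusted p = 0.00029). Slc51a, a subunit of the basolateral exporter, was at 3.85 to 18.5 CPM against 184 to 290 CPM, and Fgf15, the hormone that reports bile acids to the liver, at 0 to 0.192 CPM against 6.71, 14.3 and 10.6 CPM (-7.23 ± 1.30, adjusted p = 0.00044). Nr1h4, the bile acid receptor, was at a median of 28.1 CPM, with a highest value of 41.6 CPM, against 69.9 to 100 CPM. Fabp6, the ileal bile acid carrier, ranged from 0.961 to 60.9 CPM against 15.3, 152 and 122 CPM and was not called (-2.21 ± 1.30, adjusted p = 0.18). Cdx2+/- cecum thus held more Slc10a2 than wild-type cecum (56.2 CPM) or Apc+/- ileum (48.8 CPM), with Cdx2-/- below both.

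Genes of lipid absorption were lower in 12 of 17 cases, with 10 held, beside 20.6% and 9.56% of all genes. Of the 17, 2 were called higher and 1 of these held. Abcg5 and Abcg8, which together pump sterols back into the lumen, were at 0.757 to 7.4 CPM against 54.9 to 71.4 CPM (-3.89 ± 0.57, adjusted p = 8.7e-05) and at 0.225 to 4.07 CPM against 30.2 to 37.4 CPM (-4.06 ± 0.69, adjusted p = 0.00028). Fabp2, with 1 match in its promoter, was at 29.2 to 140 CPM against 655, 1387 and 674 CPM. Fabp1 was low throughout, at 0.0613 to 0.806 CPM against 7.71, 3.49 and 2.16 CPM. Cd36, a fatty acid receptor that endothelium and fat also make, held on the other side, at 5.8 to 19.9 CPM against 2.66 to 4.01 CPM (1.91 ± 0.29, adjusted p = 0.00012).

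Brush border hydrolases, which finish digestion at the cell surface, fell in 9 of 15 cases, with 7 held. Of all genes, 20.6% were lower and 9.56% held on that side. Alpi, intestinal alkaline phosphatase, was at 3.65 to 15.5 CPM (median 6.05) against 451, 321 and 183 CPM (-5.21 ± 0.92, adjusted p = 0.00038). Anpep and Enpep, aminopeptidases, were at 34.5 to 278 CPM against 936 to 2121 CPM and at 4.52 to 54.8 CPM against 260 to 534 CPM. Akp3, a second intestinal phosphatase, was at 28.8, 7.56 and 0.0733 CPM in Cdx2+/- with a single read in all 6 Cdx2-/- libraries, a ratio of 4022 with a 95% exact counting interval of 721 to 158950. Mgam, maltase-glucoamylase, was an exception with 352 to 604 CPM against 309, 557 and 565 CPM (0.10 ± 0.53, adjusted p = 0.90). Colonocyte transport genes were lower in 13 of 19 cases, with 7 held. Of the 19, 1 was called higher (0 without Cdx2+/- replicate 1 or 2) and did not hold. Slc26a2, a sulfate carrier, was at 202 to 282 CPM against 708 to 836 CPM (-1.68 ± 0.23, adjusted p = 5e-05), below the 2047 CPM of wild-type cecum. With epithelial scaling its difference was -0.43 and was not called (adjusted p = 0.19). Slc9a2, a sodium-proton exchanger, was at 41.9 to 131 CPM against 363 to 461 CPM. With epithelial scaling the medians of these 5 absorptive lists stayed negative (-2.61 to -0.69), and 9 microvillus, 4 bile acid, 10 lipid, 9 hydrolase and 6 colonocyte transport genes were still called lower.

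Hormone genes were lower in Cdx2-/-. Of 15 enteroendocrine genes 10 were lower and 6 held, beside 20.6% and 9.56% of all genes. Of the 15, 1 was called higher (0 without Cdx2+/- replicate 1 or 2) and did not hold. The list's sum was 8.13 to 30.3 CPM against 87.2 to 109 CPM. Chga, the granule protein chromogranin A, was at 0.924 to 4.56 CPM against 23.3, 18.4 and 21.2 CPM (-3.07 ± 0.54, adjusted p = 0.00038). Gip, an incretin hormone, had no read in Cdx2-/- and 2.21 to 2.93 CPM in Cdx2+/-, at least 37.4-fold lower. Goblet genes gave few calls, 2 of 14 higher and 1 lower, beside 19.7% and 20.6% of all genes. The higher calls fell to 1 without Cdx2+/- replicate 2 or 3. The lower calls became 2 without set 1 replicate 2 or set 2 replicate 4. They became 4 without set 2 replicate 6 or with the 9 libraries alone. The goblet list's sum was 3490 to 7130 CPM against 8582 to 12270 CPM, without overlap, and its median of -0.56 turned to 0.66 with epithelial scaling. Clca1, a secreted goblet protein, held at 53.9 to 597 CPM against 1903 to 3794 CPM (-4.25 ± 0.76, adjusted p = 0.00041), while the main intestinal mucin Muc2 was at 391 to 2590 CPM against 1097 to 1673 CPM (-0.72 ± 0.68, adjusted p = 0.41) and Creb3l1, a secretory pathway factor, held on the higher side (1.43 ± 0.28, adjusted p = 0.0009). Of 12 tuft cell genes Avil alone was called, lower (-1.47 ± 0.23, adjusted p = 0.00014).

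Olfm4 and Muc5b, both secreted, were among the 12 genes with the largest differences on the higher side. Olfm4 (chr14:79984081-80023139, plus strand), a glycoprotein of crypt base cells, was at 2579, 8171 and 8421 CPM in set 1, 9967, 10483 and 3156 CPM in set 2 and 50.1, 19.6 and 36.1 CPM in Cdx2+/- (7.65 ± 1.52, adjusted p = 0.00092). Every Cdx2-/- library was above every Cdx2+/- library, and wild-type cecum (10.3 CPM), wild-type stomach (8.55 CPM) and Apc+/- ileum (58.8 CPM) were all low. Muc5b (chr7:141839070-141873084, plus strand), the gel mucin of airways and salivary glands, was at 478, 1028 and 954 CPM, 2367, 11760 and 169 CPM, and 7.4, 9.07 and 17.2 CPM (7.46 ± 1.98, adjusted p = 0.0066), with set 2 spread far wider than set 1.

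Other genes far up the order were Ceacam10, a carcinoembryonic antigen relative, at 25.6 to 241 CPM against 2.81 to 7.75 CPM (4.87 ± 0.74, adjusted p = 0.00011), Cyp2c68, a cytochrome P450, at 14.3 to 48.7 CPM against 0.659 to 1.06 CPM (5.05 ± 0.57, adjusted p = 9.4e-06), and the epithelial calcium channel Trpv6, at 0.356 to 33.1 CPM against 0.0868 to 0.239 CPM (6.07 ± 1.22, adjusted p = 0.001).

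Further airway-like proteins rose, 7 of 11 tested with 6 held, beside 19.7% and 9.77% of all genes. Of the 11, 2 were called lower and 1 held on that side. Only 1 stayed called lower when any 1 library was left out. Bpifb3, of a family of lipid-binding secreted proteins, was at 1.71 to 28.7 CPM with a single read in all 3 Cdx2+/- libraries, a ratio of 2263 with a 95% exact counting interval of 406 to 89404. Scgb3a1, a secretoglobin, was at 7.72 to 75.7 CPM against 0.201 to 0.695 CPM (6.18 ± 0.95, adjusted p = 0.00013). Lcn2 was at 426, 161 and 155 CPM in set 1, 75.3, 503 and 74.5 CPM in set 2 and 16.1, 6.6 and 20.4 CPM in Cdx2+/- (4.01 ± 0.64, adjusted p = 0.00017). Bpifb1 moved against Bpifb3, at 3.53 to 26.6 CPM against 95 to 145 CPM (-3.04 ± 0.53, adjusted p = 0.00034). Bpifb5, at very low levels, was also below, at 0 to 0.111 CPM against 0.417 to 0.456 CPM, without overlap. Members of the Bpifb family resemble each other, and reads shared between copies are uncertain.

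Paneth cell genes, whose products defend the small-intestinal crypt, were higher in 7 of 15 cases, with 6 held, beside 19.7% and 9.77% of all genes. All 6 Cdx2-/- libraries lay above Cdx2+/- for 5 of the 15. The sum of the list was not higher, at 1375 to 2987 CPM in Cdx2-/- against 1982 to 5392 CPM in Cdx2+/-. Defa24, an alpha-defensin, was at 27.8 to 383 CPM (median 110) against 1.17, 3.21 and 0.513 CPM (6.31 ± 1.10, adjusted p = 0.00034), near the 354 CPM of Apc+/- ileum at the top of its range. Mmp7 was at 95.2, 334 and 337 CPM in set 1, 66.5, 79.9 and 551 CPM in set 2 and 6.8, 6.24 and 6.83 CPM in Cdx2+/- (5.20 ± 0.92, adjusted p = 0.0004). Lyz1, Paneth cell lysozyme, was at 14.0 to 477 CPM against 2.15 to 3.63 CPM. Chil4, a chitinase-like secreted protein not on the list, was at 41.9, 61 and 41.9 CPM in Cdx2+/- and 0 to 0.134 CPM in Cdx2-/- (-11.34 ± 1.34, adjusted p = 1.3e-05). Reg3b, an antimicrobial lectin on the same list, held on the lower side, at 193 to 242 CPM against 1214, 1557 and 3302 CPM (-3.24 ± 0.82, adjusted p = 0.0049). Defensins are near-identical copies, so how reads divide among them is uncertain.

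Stem cell and Wnt target genes gave higher calls and no lower ones in the average of the sets, with 1 Wnt target lower in set 2 alone. Of 17 stem cell genes 6 were higher, 4 held and none was lower, and of 18 Wnt targets 4 were higher and 3 held, against 19.7% of all genes called higher and 9.77% held. All 6 Cdx2-/- libraries lay above Cdx2+/- for 8 of the stem cell genes and 6 of the Wnt targets, against 19.3% of all genes, and below for none. The sum of the Wnt list was 1146 to 1776 CPM against 850 to 932 CPM, without overlap. Smoc2, a matrix protein of stem cells, was at 46.6 to 142 CPM against 20.2 to 22.3 CPM (2.11 ± 0.43, adjusted p = 0.0011), and Cd44, an adhesion receptor, at 376 to 681 CPM against 246 to 265 CPM (1.15 ± 0.29, adjusted p = 0.0047). Sp5 and Nkd1, direct readouts of Wnt signalling, held at 1.04 to 3.74 CPM against 0.382 to 0.651 CPM and at 8.34 to 14.9 CPM against 2.07 to 3.06 CPM. Axin2, the usual feedback target, was at 9.79 to 21.4 CPM against 15.4 to 30.0 CPM (-0.68 ± 0.33, adjusted p = 0.11), and Lgr5, the stem cell receptor, at 3.78 to 10.2 CPM against 1.87 to 3.89 CPM (1.03 ± 0.59, adjusted p = 0.17). These 2 lists gave 10 higher calls each with total counts only. The Wnt list gave 7 without set 1 replicate 1, and 9 higher and 1 lower with the 9 libraries alone.

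Dividing-cell genes gave 2 higher calls of 21, beside 19.7% of all genes, and none lower. They were Plk1, which held (0.73 ± 0.17, adjusted p = 0.0029), and Mcm6, which lost its call without any 1 of 8 of the 9 libraries. Mki67 was at 197 to 291 CPM against 161 to 172 CPM without overlap, and was not called (0.55 ± 0.25, adjusted p = 0.089). The count was 12 with total counts only, 7 with upper-quartile scaling and 6 with the 9 libraries alone. Of 16 genes of fetal-like or regenerating epithelium, 1 was higher, Msln, and 3 were lower, beside 19.7% and 20.6% of all genes. Only Msln held. The lower calls fell to 1 without set 1 replicate 1, set 2 replicate 4 or any 1 Cdx2+/- library and with total counts, and epithelial scaling gave 10 higher and 0 lower.

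Immune genes were mixed. Macrophage genes were higher in 9 of 14 cases with 4 held, beside 19.7% and 9.77% of all genes. Without Cdx2+/- replicate 1 or 3, though, 5 of them were called. Mertk, on the same list, held on the lower side, at 5.79 to 17.9 CPM against 33.8 to 49.8 CPM. With epithelial scaling its difference was -0.76 and was not called. Cd14, the lipopolysaccharide co-receptor, was at 149 to 293 CPM against 32.2 to 49.2 CPM (2.39 ± 0.31, adjusted p = 3.2e-05). Of 20 inflammatory mediators 2 were higher (1 without Cdx2+/- replicate 2 or set 2 replicate 6) and 3 lower, beside 19.7% and 20.6% of all genes. Of these, 1 and 2 held. Cxcl5, a chemokine that draws neutrophils, was at 29.5 to 527 CPM against 37.7, 6.17 and 11.2 CPM (3.91 ± 0.96, adjusted p = 0.004) with set 2 replicate 6 below Cdx2+/- replicate 1. Il1a was lower, at 3.88 to 10.4 CPM against 13.2 to 22.6 CPM, and so was Tnfaip3, at 38 to 57.6 CPM against 70.2 to 86.9 CPM. Both turned with epithelial scaling, where 11 mediators were called higher and 0 lower. Of 12 T and NK cell genes 4 were lower (2 without Cdx2+/- replicate 2 or 3) and 2 held, the granzymes Gzma and Gzmb, beside 20.6% and 9.56% of all genes. Cd4, the co-receptor of helper T cells, was called higher (1.11, adjusted p = 0.047) and lost the call without any 1 of 7 of the 9 libraries. The list's median of -0.94 turned to 0.36 with epithelial scaling, where Gzmb lost its call (-1.14, adjusted p = 0.074). Gzma was at 0.168 to 1.13 CPM against 6.75, 9.48 and 6.69 CPM (-3.54 ± 0.71, adjusted p = 0.00094).

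Oxidative phosphorylation subunits were lower by small, even amounts. Of 16 nuclear-encoded subunits 15 fell and 9 held, beside 20.6% and 9.56% of all genes. The list's median of -0.61 turned to 0.56 with epithelial scaling. Atp5b, of the ATP synthase, was at 892 to 1400 CPM against 1863 to 1902 CPM (-0.76 ± 0.13, adjusted p = 0.00031). Cytochrome P450 and conjugation enzymes fell in 11 of 20 cases with 7 held. Of the 20, 2 were higher and held (1 called without Cdx2+/- replicate 3). With epithelial scaling 4 were called lower and 4 higher, and the median turned from -1.02 to 0.04. Cyp4f14, a fatty acid hydroxylase, led the lower calls, at 2.4 to 18.7 CPM against 221 to 534 CPM. Cyp1a1, whose promoter drives the Cre, had 0 to 7 reads in each of the 9 libraries and was not tested. Cyp1b1, a related target of the β-naphthoflavone receptor, held on the higher side, at 2.05 to 16.1 CPM against 0.565 to 1.87 CPM (3.23 ± 0.66, adjusted p = 0.0011). Of the 9 target genes of this receptor tested, 3 were lower and 1 higher, beside 20.6% and 19.7% of all genes. These counts became 0 and 3 with epithelial scaling. Tiparp, one of the 3, was at 16.7 to 25.3 CPM against 31.6 to 41.9 CPM (-0.99, adjusted p = 0.0079) and turned to 0.20 under that scaling.

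The sets differed from each other in fewer genes: 826 were higher in set 2 than in set 1 (4.03%) and 1322 lower (6.45%). Of the 3963 genes that held, 144 also differed between the sets. In 1615 genes 1 set was called against Cdx2+/-, the other was not and the sets themselves differed, with set 2 above set 1 in 576 and below in 1039. H2-Eb1, an MHC class II chain, was at 35.8, 59.5 and 55.3 CPM in set 1, 2.78, 3.33 and 0.978 CPM in set 2 and 50.8, 60.1 and 43.9 CPM in Cdx2+/-, so set 2 alone stood apart (set 2 minus set 1 -4.40 ± 0.77, adjusted p = 0.0021). Lypd6, a membrane-anchored protein, was at 0.332 to 0.487 CPM in set 1, 8.38 to 12.8 CPM in set 2 and 0.278 to 1.28 CPM in Cdx2+/- (4.69 ± 0.56, adjusted p = 6.9e-05).

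Heat shock genes varied with the set. Hspa1a, an inducible chaperone, was at 44.6 to 58.5 CPM in set 1, 0.911 to 1.86 CPM in set 2 and 518, 223 and 138 CPM in Cdx2+/-, with set 2 below set 1 by -5.33 ± 1.13 (adjusted p = 0.0072). The immediate early and heat shock list summed to 2784 to 3001 CPM in set 1, 1394 to 1525 CPM in set 2 and 4062 to 6893 CPM in Cdx2+/-.

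In wild-type cecum, genes that were lower in Cdx2-/- stood mostly on the Cdx2+/- side or beyond. Of the 1959 genes that held on the lower side, 1106 (56.5%) had a wild-type mean above both states, 595 (30.4%) between them and 258 (13.2%) below both. Of the 2004 that held on the higher side, 331 (16.5%) were highest in wild-type cecum, 933 (46.6%) lay between and 740 (36.9%) were lowest there. Psca, Sox2 and Gata4 lay between, close to Cdx2-/-.

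Regional genes were grouped by the reference tissues. Their libraries are not in the contrast of Cdx2-/- with Cdx2+/-, but they share its filter, scaling and estimate of spread. Of 608 genes higher in wild-type cecum than in both wild-type stomach and Apc+/- ileum, at an adjusted p under 0.05 and a log2 difference of at least 2, 308 (50.7%) were lower in Cdx2-/- than in Cdx2+/- and 35 (5.76%) higher, with a median of -1.07 that turned to 0.10 with epithelial scaling. Of 1662 genes high in ileum but not stomach, 517 (31.1%) were higher in Cdx2-/- and 138 (8.30%) lower, with a median of 0.71. Of 903 genes high in stomach but not ileum, 189 (20.9%) were higher and 188 (20.8%) lower, close to the 19.7% and 20.6% of all genes, although single stomach genes such as Psca and Ghrl differed by large factors. Without Cdx2+/- replicate 2 the higher calls fell to 340 of the ileum-high, 119 of the stomach-high and 21 of the cecum-high genes, and without Cdx2+/- replicate 1 to 123 of the stomach-high genes.

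**Figure D5:**
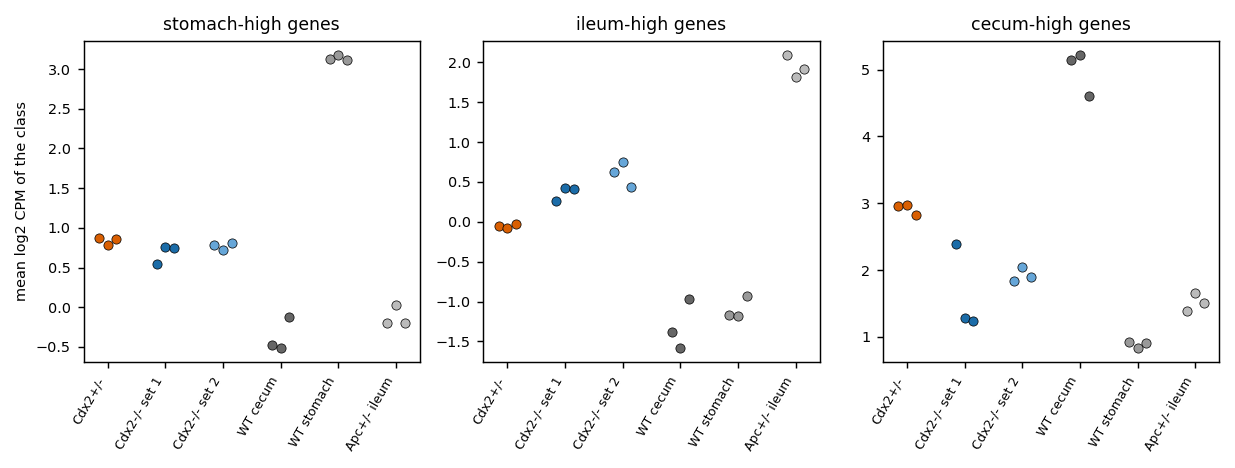
Mean log2 CPM (prior count of 2) of stomach-high, ileum-high and cecum-high genes in each library of 6 groups. Cecum-high genes averaged 2.82 to 2.97 in Cdx2+/-, 1.24 to 2.39 in Cdx2-/- set 1 and 1.83 to 2.05 in set 2, against 4.61 to 5.21 in the wild-type cecum that defined them.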

How the data were processed

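The authors deposited a file of read counts per gene for each library, made from mRNA libraries (Trizol RNA, TruSeq mRNA version 2, per the labels' protocols). The submitters' processing notes name CASAVA, TopHat2 2.0.11, HTSeq 0.5.3p3 and GRCm38, but nothing used here states the counting options, strand setting or annotation release. Of 39179 genes listed, 37607 had a symbol in the GENCODE or name tables, and the 5 closing entries of unassigned reads stayed out (no feature 6.62% to 10.4% in the 9 libraries). Libraries are samples of whole dissected cecum, and reads per library set the precision.

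Counts of all 24 libraries in 8 groups were fitted with edgeR 4.0.16 (R 4.3.3, TMM, filterByExpr, quasi-likelihood F test, no block), and p-values were adjusted by Benjamini-Hochberg over 20502 genes at 0.05. The standard error is the absolute log2 fold change divided by the square root of F. Fitted folds of genes at 0 in a state depend on the prior count, so a bound (3 reads per library) or, with 1 to 3 reads, the ratio of summed reads with its 95% exact (Clopper-Pearson) interval is given, which covers counting error only. The scripts were tested on simulated data.

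Named genes were Cdx2, Cdx1, Sox2, Gata5, Apc and Cyp1a1; the 12 largest log2 differences each way among genes that held, with at least 10 CPM in the higher state and no overlap, leaving out predicted, immunoglobulin, T cell receptor and Y-linked genes and Xist; up to 4 genes with the smallest adjusted p per list (43 lists); and 5 set-dependent genes each way. Other genes were named after their values were seen. The result for 1 listed gene is not reported here, though the counts and medians of its list include it. The members and lists were chosen with earlier results of these data known. Alternatives were other scalings, no filter, DESeq2 1.42.0, other sets of libraries and leaving out each library. Promoters came from RefSeq (GRCm38.p6), matched by symbol, and gene coordinates from GENCODE (GRCm38).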

Additional observations from a re-analysis of the deposited data

Results flagged for a closer look

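Among the 172 named genes, 17 had 1 of the 6 Cdx2-/- libraries far from the other 5 on log2 (CPM + 1), where chance flags about 1 in 20 groups. Set 2 replicate 6 stood apart in Ceacam10 (25.6 CPM), Kcnj15 (43.3 CPM), Cxcl5 (29.5 CPM), Tnfaip3 (57.6 CPM) and Tiparp (25.3 CPM). Set 2 replicate 4 did in Chil4 (0.134 CPM), Hnf4g (15 CPM), Slc10a2 (13.8 CPM), Anpep (278 CPM) and Il1a (3.88 CPM), and set 2 replicate 5 in Gsta1 (89.1 CPM) and Col1a2 (526 CPM). Set 1 replicate 1 stood apart in Akp3 (0.0109 CPM), Nkx6-2 (0.0109 CPM), Atp4b (0.707 CPM), Chia1 (26.6 CPM) and Ano1 (172 CPM). For Akp3 and Nkx6-2 the value is 1 read.

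The sets differed from each other in 13 of the 172 genes by edgeR's quasi-likelihood test of set 2 minus set 1. Among all genes tested 4.03% were higher and 6.45% lower. The 5 set-dependent genes each way were named because they passed this same test, so the count of 13 is no result about the named genes. Only Fn1, Scnn1g and Dnajb1 were named by other rules. Set 2 was above set 1 by log2 differences of 4.69 in Lypd6, 3.90 in Trim12a, 3.64 in Slc9a3, 3.39 in Kcnj15, 3.26 in Xlr3b, 2.48 in Fn1 and 2.31 in Scnn1g. It was below by -7.70 in Chia1, -5.33 in Hspa1a, -5.12 in Hspa1b, -4.40 in H2-Eb1, -4.07 in Slc39a2 and -1.34 in Dnajb1. For Chia1 the set 1 level rested on replicate 1, since replicates 2 and 3 were at 0.111 and 0.0672 CPM. Kcnj15 and Slc9a3 lost the call without set 2 replicate 6, Xlr3b without set 1 replicate 2 and Chia1 without set 1 replicate 1, among other libraries. Sex goes with the sets, and its part in these differences was not tested.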

How the results depend on the processing

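The 4036 higher and 4217 lower genes (8253 in all) became 5534 and 3115 with upper-quartile scaling and 6902 and 2341 with total counts. Set 1 minus Cdx2+/- (5340 genes) became 3597 and 2187, and 4758 and 1683; set 2 minus Cdx2+/- (8743 genes) became 6061 and 3077, and 7152 and 2327. Set 2 minus set 1 was 1121 higher and 1033 lower with upper-quartile scaling.

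Libraries scaled to the 9 epithelial markers, chosen after seeing the data, gave 15367 genes in the average (14780 higher, 587 lower), 11885 in set 1, 15551 in set 2, 10833 that held (10562 higher) and 234 between the sets. Adding set 1 replicates 2 and 3 into 1 library gave 3336 genes in set 1, 970 between the sets and 2652 that held. Leaving out 1 library gave 5634 to 8481 in the average, 3208 to 5601 in set 1, 6128 to 8818 in set 2, 665 to 2091 between the sets and 2386 to 3897 that held. The lowest counts were without Cdx2+/- replicate 2 (3208 in set 1, with 3339 and 3293 without set 1 replicate 2 or 3) and without set 2 replicate 5 (665 between the sets, with 872 and 1034 without set 1 replicate 2 or 3, 1175 without set 2 replicate 4 and 1340 without set 1 replicate 1).

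A replicate block in set 1 minus Cdx2+/-, fitted without set 2, gave 5363 genes and the same fit without the block 5318. Same-numbered libraries of set 1 and Cdx2+/- deviated from their group means with correlations of 0.04, -0.01 and 0.03. These values show no sign of pairing by number, but with so few libraries they cannot exclude it.

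Of 2965 recomputed values of 175 named results, 2776 kept direction and call, 168 lost the call, 4 gained it and 17 turned, all with epithelial scaling: Apc 0.90, Dsc2 0.18, Il1a 0.19, Tnfaip3 0.36, Fcer1a 0.091, Tiparp 0.20, Mylpf 0.49, Krt19 0.039, Jun 0.054, Hk2 0.10, Pgk1 0.39, Ankrd37 0.18, Sdhb 0.29, Uqcrc2 0.43, Atp5b 0.41, Cyc1 0.17 and Ugt2b34 0.38. DESeq2 gave no adjusted p for 4 named genes (Psca, Slc51a, Gzma and Cldn3), whose log2 differences it put at -6.41, -4.79, -3.55 and -1.58. Hnf4a, Nr1h4, Slc26a2, Foxa2, Avil and Gzmb kept their direction but lost the call with epithelial scaling. Epithelial scaling multiplies all genes of a library by the same factor, so it moved their differences up together, as it did the median of all genes. Why the epithelial markers differ between the states was not tested, nor was the cause of the other changes.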

Other observations

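Neutrophil genes were higher in 4 of 12 cases, with 2 held, beside 19.7% and 9.77% of all genes, and in 1 case without Cdx2+/- replicate 2 and 2 without replicate 3. Cxcr2, the receptor that guides neutrophils, was at 9.28, 14.5 and 15 CPM in set 1, 6.26, 24.6 and 7.89 CPM in set 2 and 3.47, 1.84 and 1.85 CPM in Cdx2+/- (log2 difference 2.44 ± 0.54, edgeR adjusted p = 0.0019). Plasma cell genes gave 1 call of 10 (2 without set 1 replicate 1 or set 2 replicate 6), Xbp1, a factor of secretory cells, at 396 to 567 CPM against 300.3 to 311 CPM. Genes of hypoxia and glycolysis were lower in 6 of 10 cases, with 2 held, beside 20.6% and 9.56% of all genes. They were lower in 2 cases without Cdx2+/- replicate 2 or 3. Hk2, Pgk1 and Ankrd37, called lower by -1.15, -0.77 and -1.05, turned to 0.10, 0.39 and 0.18 with epithelial scaling. Interferon response genes gave 3 lower calls of 17, with 1 held, beside 20.6% and 9.56% of all genes. They gave 1 without Cdx2+/- replicate 2, 5 without set 1 replicate 1 and 9 with the 9 libraries fitted alone. The median of the hypoxia list turned from -0.88 to 0.28, and that of the interferon list from -1.09 to 0.11, when libraries were scaled to the 9 epithelial markers.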
